A study of Homo sapiens with 6 samples.

Results

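A set of 10 transcription factor genes of the myeloid lineage was followed in MV4;11 leukemia cells given MI-389 or DMSO: CEBPA, CEBPB, CEBPD, CEBPE, SPI1, IRF4, IRF8, KLF4, GFI1 and RUNX1. Their probe sets were all those annotated on the platform to one of these symbols alone. They came to 25 of the 49293 probe sets tested, and the 10 genes to 10 of the 18239 genes with a value. A further probe set, annotated to both RUNX1 and SH3D19, was left out.

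MV4;11 is a human myeloid leukemia line in which the MLL gene (KMT2A) is rearranged, and both groups carry that rearrangement. MI-389, named in the series text as an inhibitor of the binding of menin to MLL, was given at 4 µM for 6 days with 0.25% DMSO. The control cells received 0.25% DMSO for the same 6 days, and both groups had fresh medium and fresh compound or solvent on day 3. Each group had 3 biological replicates, 1 array each, from 1 cell line. How the cultures were separated is not given, so the p-values cover only how much these 6 samples vary, and part of that may be technical.

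C/EBP proteins are basic leucine zipper factors that bind DNA as dimers. C/EBPα drives progenitors towards granulocytes and monocytes, C/EBPβ and C/EBPδ act in later and inflammatory stages, and C/EBPε acts in late granulocyte maturation. PU.1, the ETS factor encoded by SPI1, works beside C/EBP factors at myeloid genes and recruits IRF8 or IRF4 to composite sites. KLF4 is a zinc finger factor of monocytes, GFI1 is a repressor that favours granulocytes, and RUNX1 with its partner CBFβ acts upstream of much of this network.

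Promoter sequence of 3 genes that rose is shown first, because KLF4 and CEBPE hold ETS-type letters close to the start and CEBPA holds a TATA box. Each line is the 250 bases before the annotated RefSeq start, 5′ to 3′ on the gene's strand, in GRCh38.p14. Capitals mark AGGAAG (PU.1 and ETS), GGAANNGAA (an ETS and IRF composite) or TATAAA. The KLF4 window is chr9:107489770-107490019, that of CEBPE is chr14:23119256-23119505 and that of CEBPA is chr19:33302535-33302784, all on the minus strand.

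KLF4: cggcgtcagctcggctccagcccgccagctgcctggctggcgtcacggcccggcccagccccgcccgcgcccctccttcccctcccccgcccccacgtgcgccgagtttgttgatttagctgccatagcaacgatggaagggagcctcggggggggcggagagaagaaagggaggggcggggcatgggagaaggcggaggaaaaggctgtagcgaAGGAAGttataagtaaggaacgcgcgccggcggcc
CEBPE: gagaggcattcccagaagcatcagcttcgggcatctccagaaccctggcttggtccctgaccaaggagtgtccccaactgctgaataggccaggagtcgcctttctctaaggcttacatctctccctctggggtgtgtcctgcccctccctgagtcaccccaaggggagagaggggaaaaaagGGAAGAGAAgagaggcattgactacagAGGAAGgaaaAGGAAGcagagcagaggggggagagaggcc
CEBPA: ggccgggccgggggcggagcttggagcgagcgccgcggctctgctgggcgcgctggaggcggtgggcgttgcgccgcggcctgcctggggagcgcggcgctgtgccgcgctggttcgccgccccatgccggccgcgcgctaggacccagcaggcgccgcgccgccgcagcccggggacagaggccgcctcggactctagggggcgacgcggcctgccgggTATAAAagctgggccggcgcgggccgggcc

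The RefSeq table was used for 12 windows of 8 of the genes, read on both strands. KLF4 holds AGGAAG at 35 bases before its start. CEBPE holds AGGAAG at 40 and 30 bases and GGAANNGAA at 67 bases before its start. The TATA box of CEBPA lies 30 bases before the start. Of the 12 windows 3 hold AGGAAG, compared with 28.7% of all 35116 windows of the same length. Those are the windows of KLF4, CEBPE and the second start of GFI1. GGAANNGAA is in 3 windows, those of CEBPE, RUNX1 and the second start of GFI1, compared with 6.58%. GFI1 and RUNX1 were not called (below), so these letters are not particular to genes that rose. TATAAA is in 3 windows, those of CEBPA, IRF4 and the second start of CEBPB, compared with 10.7% of all windows. The C/EBP letters TTGCNNAA (9.05% of all windows) occur in 1 window, at the second start of GFI1. The IRF letters AANNGAAA (20.3%) occur in the windows of both IRF8 starts. These windows overlap, and the match 21 bases before the first start is the same site as that 206 bases before the second. The RUNX letters TGTGGT (11%) occur at the first start of IRF8 and the second of GFI1. The KLF letters CCACACCC (2.97%) occur in 0 of the 12. The composite can share bases with AGGAAG or AANNGAAA, as it does with AGGAAG at GFI1. These matches describe letters in a window and are not measured binding sites.

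Of the 10 genes, 8 passed the test, 5 higher with MI-389 (CEBPA, CEBPD, CEBPE, IRF8 and KLF4) and 3 lower (CEBPB, SPI1 and IRF4). GFI1 and RUNX1 did not pass. The test was limma's moderated comparison on the deposited log2 values, with a Benjamini-Hochberg adjusted p under 0.05 over all genes. By that rule 34.1% of all genes were called, 18.4% higher and 15.7% lower. For 9 of the 10 genes the groups did not overlap, as for 45.3% of all genes. Because the arrays read whole cultures, a change in RNA per cell and a change in the share of cells that express a gene cannot be told apart. The median change of the 10 genes was 0.14 on the log2 scale, and that of all genes was 0.02. Of the 25 probe sets 12 were called higher, 6 lower and 7 were not called, against 28% of all probe sets called.

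**Figure D1:**
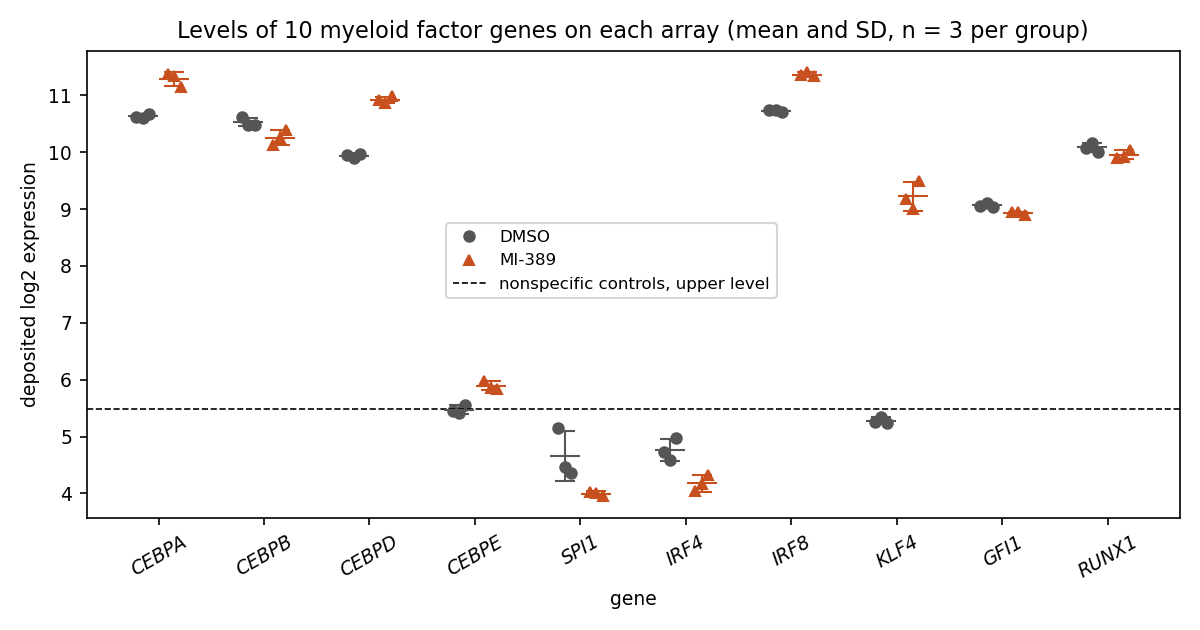
Deposited log2 expression (vertical axis) of the 10 genes (horizontal axis) on each array, with the mean and SD of the 3 DMSO (circles) and 3 MI-389 (triangles) arrays. The dashed line at 5.49 is the upper level of the nonspecific control probe sets, and SPI1 and IRF4 lie under it in both groups.

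A level of 5.49 serves as the guide to background in what follows. It is the highest value, on any array, of the 23 control probe sets of nonspecific sequence once the one with the highest GC content is left out. The value comes from MI-389 replicate 1. That control read 5.19 ± 0.06 with DMSO and 5.43 ± 0.06 with MI-389, without overlap, so the guide is stricter for the DMSO arrays. The control left out read 7.45 ± 0.11 with DMSO and 7.77 ± 0.09 with MI-389. Controls of lower GC content read lower, down to a mean of 2.81 with DMSO. By this guide 9311 of the 18239 genes were at background in both groups, among them SPI1 and IRF4. At background here means under 5.49, which does not show that a gene is not expressed. Levels of different probe sets are not set against each other, since each binds its own target with its own strength.

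CEBPA, the gene of the C/EBP factor that starts granulocyte and monocyte commitment, rose. Its log2 values were 10.63, 10.60 and 10.67 with DMSO, and 11.38, 11.34 and 11.15 with MI-389. Every MI-389 array lay above every DMSO array, with replicate 3 the lowest of the MI-389 arrays. The change was 0.66 (SE 0.07, 95% interval 0.50 to 0.81, adjusted p = 4.13e-05), a 1.58-fold higher level.

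CEBPD, which encodes the factor induced in inflammatory and late myeloid stages, had the largest rise of the 4 C/EBP genes. The DMSO arrays read 9.96, 9.90 and 9.97, and the MI-389 arrays 10.92, 10.87 and 10.98. The groups were apart by many times their spread. The change was 0.98 (SE 0.06, 95% interval 0.86 to 1.11, adjusted p = 4.93e-07), or 1.98-fold. All 5 CEBPD probe sets were called higher, by 0.76 to 1.12.

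CEBPE, whose protein is needed for late granulocyte maturation, rose from a level near background. It read 5.45, 5.41 and 5.56 with DMSO and 5.98, 5.86 and 5.83 with MI-389. The DMSO mean of 5.47 lay just under 5.49 with replicate 3 just over it, and all 3 MI-389 arrays lay above it. The change was 0.42 (SE 0.06, 95% interval 0.27 to 0.56, adjusted p = 5.67e-04). Against the 5.49 level this is at least 1.33-fold higher. The nonspecific control that sets this level was itself higher with MI-389, by 0.24. Its part in the change of CEBPE was not tested.

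CEBPB, which encodes the C/EBP factor tied to macrophage and emergency responses, was the 1 C/EBP gene of the 4 that fell. Its DMSO values were 10.62, 10.49 and 10.49, and its MI-389 values 10.14, 10.25 and 10.39. The groups did not overlap, though MI-389 replicate 3 lay close to the lower DMSO arrays. The gene fell by 0.27 (SE 0.07, 95% interval -0.44 to -0.10, adjusted p = 0.0174), a level 1.21-fold lower. Without DMSO replicate 1 the adjusted p was 0.0730, and without MI-389 replicate 1 it was 0.0624, so the call rests on these arrays.

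The C/EBP genes shifted relative to each other on the same arrays. The log2 difference of CEBPA minus CEBPB went from 0.10 ± 0.09 to 1.03 ± 0.25 (SD, n = 3 each), a shift of 0.93. CEBPD minus CEBPB went from -0.59 ± 0.07 to 0.67 ± 0.10, a shift of 1.25. CEBPD minus CEBPA shifted by 0.33. A constant added to an array cancels in such differences, and only the shift can be read, not the level of one gene against another. In all 7 pairs compared, the groups did not overlap. For pairs of a gene that rose and a gene that fell, each without overlap, this followed from the single genes and adds no support. The share over all pairs of genes was not computed. The other 4 pairs hold CEBPE or IRF4 (the latter against IRF8), which were at background in at least 1 group, so no size is given for them. Each exact two-sided permutation test gave p = 0.1, the smallest that 3 against 3 arrays can give, and 0.1 after adjustment over the 7 pairs.

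SPI1, which encodes PU.1, was at background on all 6 arrays. Its 1 probe set read 5.16, 4.46 and 4.36 with DMSO and 4.02, 4.01 and 3.95 with MI-389. DMSO replicate 1 stood above the other DMSO arrays, and all MI-389 arrays were below all DMSO arrays. The signal fell by 0.66 (SE 0.17, 95% interval -1.05 to -0.28, adjusted p = 0.0119). Without DMSO replicate 1 it fell by 0.42 (adjusted p = 0.00152). No fold is given, because both groups lie under 5.49. A dim signal of 1 probe set does not show how much RNA of the gene is present.

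IRF8, the interferon regulatory factor of monocyte and dendritic cell development, rose on every probe set. The values were 10.75, 10.74 and 10.71 with DMSO, and 11.35, 11.41 and 11.34 with MI-389. Both groups were tight and far apart. The change was 0.63 (SE 0.05, 95% interval 0.51 to 0.75, adjusted p = 7.98e-06), or 1.55-fold. The other IRF8 probe sets rose by 0.71 and 0.48.

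IRF4, the relative of IRF8 that binds the same composite sites with PU.1, was at background in both groups. The brighter of its probe sets read 4.72, 4.59 and 4.97 with DMSO and 4.03, 4.16 and 4.33 with MI-389. The MI-389 arrays were all lower. The signal fell by 0.59 (SE 0.10, 95% interval -0.82 to -0.35, adjusted p = 0.00141). The dimmer probe set was not called, with a change of 0.06 (95% interval -0.07 to 0.19).

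KLF4, the zinc finger factor of monocyte differentiation, rose most of the 10 genes. It read 5.25, 5.35 and 5.24 with DMSO, and 9.18, 8.996 and 9.50 with MI-389. The DMSO arrays were all under 5.49 and the MI-389 arrays far above it. The change was 3.95 (SE 0.11, 95% interval 3.70 to 4.19, adjusted p = 3.35e-09), at least 13.3-fold against the 5.49 level. A second, dimmer probe set read 4.61, 4.42 and 4.19 with DMSO and 6.13, 6.37 and 6.31 with MI-389. It rose as well, by at least 1.72-fold against the 5.49 level. Since both probe sets start from under that level, the sizes of their rises are not compared.

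**Figure D2:**
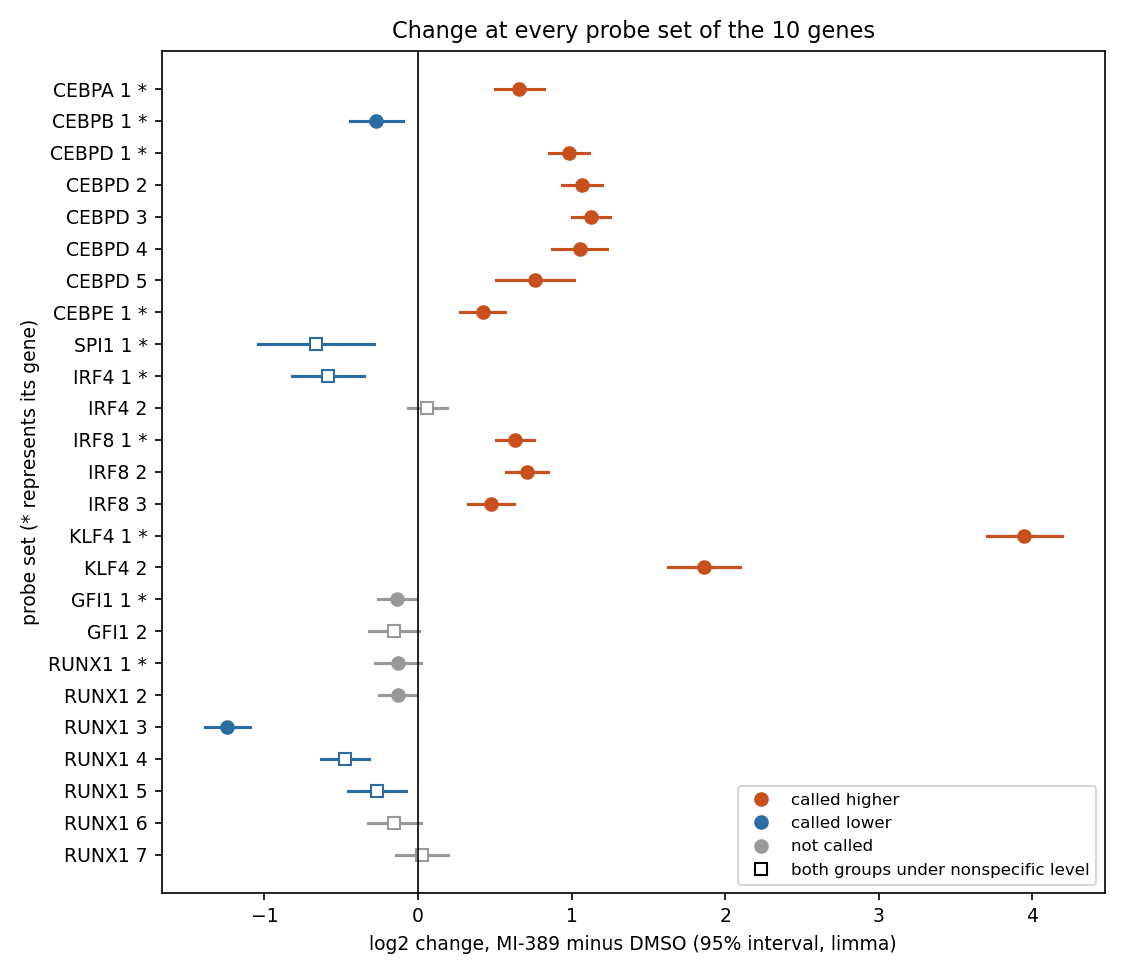
Log2 change, MI-389 minus DMSO (horizontal axis), of each of the 25 probe sets with its 95% interval, by gene. All 5 CEBPD and all 3 IRF8 probe sets lie to the right of 0, whereas the 7 RUNX1 probe sets range from -1.24 to 0.03.

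GFI1, the repressor that holds back monocytic genes, was not called. The values were 9.05, 9.10 and 9.04 with DMSO and 8.95, 8.95 and 8.90 with MI-389. The groups did not overlap, but the difference was small, -0.14 (SE 0.05, 95% interval -0.25 to -0.02, adjusted p = 0.0772). It was called lower, with a change between -0.15 and -0.14, with arrays shifted to a common median (adjusted p = 0.0477), with dim genes left out (0.0401), with a trended and robust variance (0.0331) and with the mean of its probe sets (0.0397). The second GFI1 probe set was at background, with a change of -0.16 that was not called.

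RUNX1, which encodes the DNA-binding subunit of core binding factor, was not called on its brightest probe set. It read 10.08, 10.16 and 10.01 with DMSO and 9.90, 9.91 and 10.04 with MI-389, and the groups overlapped. The change was -0.13 (SE 0.06, 95% interval -0.28 to 0.01, adjusted p = 0.158). A second bright probe set had the same change of -0.13 and was not called either.

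The dimmer RUNX1 probe sets did not all follow the bright ones. One read 5.85, 5.96 and 5.85 with DMSO and 4.55, 4.71 and 4.68 with MI-389, so that it fell from above 5.49 to below it. Its measured change was -1.24 (95% interval -1.39 to -1.09), and against the 5.49 level the fall is at least 1.32-fold. Of the 4 at background in both groups, 2 were called lower, with changes of -0.48 and -0.27, and the others changed by -0.16 and 0.03 and were not called. The sources used here do not give which RUNX1 transcripts each probe set reads. The mean of all 7 probe sets gave a change of -0.34 (adjusted p = 1.70e-04). The probe set preferred by its suffix is the dimmest of the 7, given above as at background with 0.03, and was not called.

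The scaling of the arrays moves these values by a common amount. The hybridisation spike-ins, transcripts added to the hybridisation mix, read 9.05 ± 0.05 with DMSO and 9.30 ± 0.05 with MI-389. Centring the arrays on them lowered every change by 0.25, so that the median of all genes was -0.23, with 7.66% of genes called higher and 60.6% lower. On that scale CEBPA (0.41), CEBPD (0.73), IRF8 (0.38) and KLF4 (3.69) were still called higher. CEBPE was not called (0.17, adjusted p = 0.0653). CEBPB (-0.52), SPI1 (-0.92) and IRF4 (-0.84) were called lower, as were GFI1 (-0.39) and RUNX1 (-0.38).

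**Figure D3:**
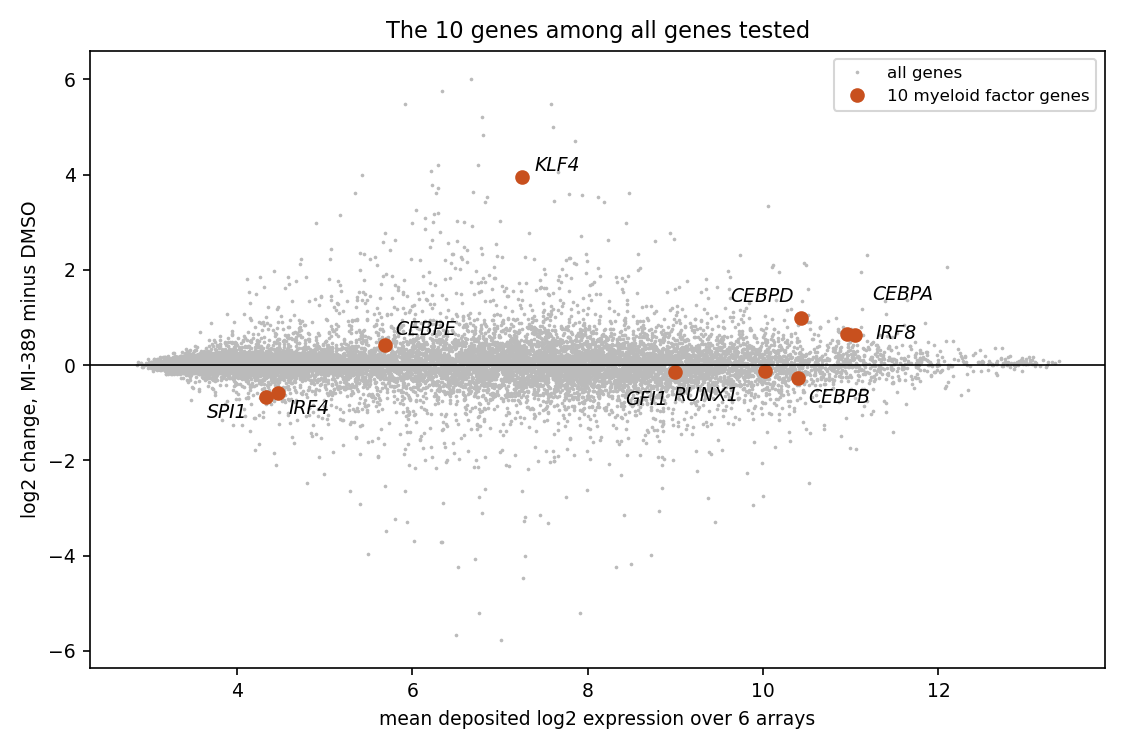
Log2 change, MI-389 minus DMSO (vertical axis), against the mean deposited log2 expression over the 6 arrays (horizontal axis), for all 18239 genes (grey) and the 10 genes (orange, named). KLF4 stands at 3.95, and the other 9 genes lie between -0.66 and 0.98.

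The arrays agreed within each group (r = 0.997 to 0.998 across all probe sets) more closely than between groups (0.979 to 0.981). MI-389 replicate 3 stood apart on the second principal component, which held 4.91% of the variance. Of 7 measured markers listed for the myeloid line, 5 were above 5.49 (PTPRC, FLT3, CD4, CSF1R and ELANE). ANPEP and MPO were below it. The summed level of these 7 markers was 11.9 to 12.0 with DMSO and 12.5 to 12.6 with MI-389 on the log2 scale. They did not move together: ELANE rose from 10.14 ± 0.03 to 12.10 ± 0.06, whereas FLT3 fell from 11.01 ± 0.04 to 9.59 ± 0.09. Of 28 measured markers of other blood lineages, 27 were under 5.49 in both groups. The exception was NKG7, a granule protein of natural killer and T cells, which rose from 6.35 ± 0.12 to 7.29 ± 0.06. The ACTB signal of 3′ minus 5′ probe sets, a guide to RNA integrity, went from 1.30 ± 0.08 to 1.64 ± 0.23 with MI-389. It was highest in MI-389 replicate 3 (1.91), against 1.54 and 1.48 in MI-389 replicates 1 and 2. The same difference for GAPDH went from -0.11 ± 0.02 to 0.04 ± 0.02. The part of these differences in the changes of the 10 genes was not tested.

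Relatives, partners and antagonists of the C/EBP proteins fell more often than they rose. In a list of 13 genes (bZIP relatives, Tribbles genes and COP1), 2 rose and 7 fell (69.2% called). The median change of the list was -0.33, against 0.02 for all genes. On the spike-in scale 1 was called higher and 10 lower. For this list and those below, the shares over all genes are 34.1% called, 18.4% higher and 15.7% lower. On the spike-in scale they are 7.66% higher and 60.6% lower. TRIB3, a Tribbles pseudokinase, fell from 10.58 ± 0.11 to 6.41 ± 0.18, a change of -4.17. DDIT3, which encodes the C/EBP relative CHOP that blocks other C/EBP factors, fell to under 5.49, by at least 1.79-fold against that level, as did BATF3, by at least 1.77-fold. CEBPG, a short C/EBP family member without an activation domain, went from 10.34 ± 0.04 to 9.49 ± 0.04, a change of -0.85. TRIB1, an adaptor that delivers C/EBPα to the ligase COP1 for degradation, fell by 1.03, and COP1 was not called (-0.09). These last 2 genes were chosen after their values were seen. BATF rose by 0.87 and DBP by 0.35.

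Among 15 ETS relatives of PU.1, 4 rose and 4 fell (53.3% called), with a median of -0.0004. ELK3 rose by 0.64, ETS2 by 0.34 and GABPA by 0.33, whereas ETS1 fell by 1.18, ETV6 by 0.93 and ELF4 by 0.67. On the spike-in scale 1 was called higher and 9 lower, and with a common median 3 and 5. SPIB (-0.18) and SPIC (-0.03), the closest relatives of SPI1, were at background and not called.

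Most of the other IRF genes fell. Of 6 measured (83.3% called), IRF5 rose, 4 fell and IRF2 was not called, with a median of -0.65. IRF5, a factor of macrophage cytokine genes, went from 7.57 ± 0.12 to 8.92 ± 0.03, a change of 1.35. IRF7 fell by 1.01, IRF9 by 0.81 and IRF3 by 0.67, genes of the type I interferon response. The split on the spike-in scale was also 1 higher and 4 lower.

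No other KLF gene rose by more than 0.27. Of 16 measured (43.8% called, against 34.1% of all genes), 3 rose (KLF7 0.27, KLF1 0.21 at background, KLF9 0.20) and 4 fell. KLF2, the close relative of KLF4, fell from 8.14 ± 0.19 to 5.37 ± 0.14, at least 6.31-fold against the 5.49 level. KLF16 fell by 0.72 and KLF11 by 0.56, and KLF6 did not differ detectably (0.00, 95% interval -0.22 to 0.22). Leaving out any one of the DMSO arrays, or MI-389 replicate 1, lowered the 7 calls to 4, and on the spike-in scale 0 were higher and 10 lower.

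Of 11 partners and relatives of RUNX1 and GFI1 (45.5% called, against 34.1% of all genes), 1 rose and 4 fell, with a median of 0.05. RUNX2, the relative of RUNX1 in bone and plasmacytoid dendritic cells, went from 10.34 ± 0.05 to 8.47 ± 0.05, a 3.65-fold lower level. RUNX3 fell by 0.34, CBFA2T3, a corepressor of the ETO family, by 0.51, and CBFB, the shared partner subunit, by 0.22. RCOR1, a subunit of the LSD1 corepressor complex that GFI1 recruits, rose by 0.46. GFI1B was at background (0.02, not called). The spike-in split was 1 higher and 6 lower.

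Among 17 measured monocytic factors outside these families, 6 rose and 1 fell (41.2% called, against 34.1% of all genes). TFEC, a macrophage factor of the MITF family, rose by 2.03 and ID2, an inhibitor of E proteins, by 0.76. BCL6, a repressor, rose from under 5.49, by at least 1.51-fold against that level. EGR1 fell by 1.85. The median was 0.04, and on the spike-in scale 4 were higher and 9 lower. Of 20 measured factors of other lineages and of progenitors, 6 rose and 4 fell (50% called). Their median was 0.06, with a spike-in split of 3 and 9. NFE2, known from megakaryocytes and also present in myeloid cells, rose by at least 2.76-fold and ID1 by at least 1.38-fold, both from under 5.49, and HHEX rose by 0.59 on the log2 scale. ZFPM1, a cofactor of GATA1, fell by 0.72, LMO2 by 0.69 and IKZF2 by 0.59 at background.

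**Figure D4:**
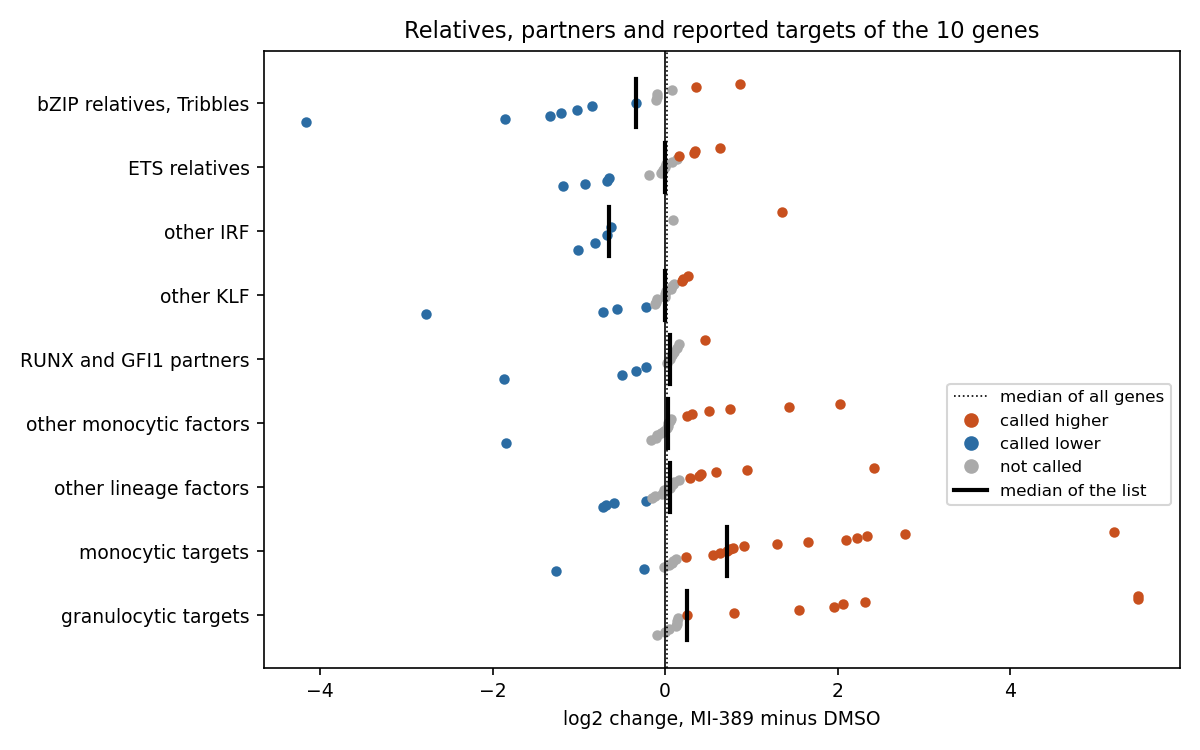
Log2 change, MI-389 minus DMSO (horizontal axis), of each measured gene in 9 lists of relatives, partners, other factors and targets (rows), coloured by call, with each list's median (bar) and the median of all genes (dotted line). Monocytic targets have a median of 0.72, and bZIP relatives with Tribbles and COP1 have a median of -0.33.

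Genes of monocytes listed as reported targets of C/EBP, PU.1 or IRF8 were mostly higher. Of 21 measured, 14 rose and 2 fell (76.2% called), with a median of 0.72, and on the spike-in scale the split was 13 and 4. CYBB, the catalytic subunit of the phagocyte oxidase, went from 4.19 ± 0.34 to 9.39 ± 0.03, a rise from under the 5.49 level to far above it. ITGAM, the integrin chain CD11b, rose by at least 4.68-fold, and IL6R by 2.34 on the log2 scale. FCGR1A, a high-affinity Fc receptor gene, fell by 1.27 and BTK by 0.25.

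Genes of granulocytes and their granules, listed as reported targets of C/EBP, PU.1, RUNX1 or GFI1, rose in part. Of 15 measured, 8 rose and 0 fell (53.3% called), with a median of 0.25, and 7 and 3 on the spike-in scale. S100A8 and S100A9, a calcium-binding pair of phagocytes, rose from under 5.49, by at least 28.5-fold and at least 9.03-fold against that level. PRTN3, a primary granule protease, rose by 2.31. The 7 genes that were not called include those of secondary and tertiary granules, such as LTF (-0.10), LCN2 (0.04) and MMP8 (0.12), which were at background in both groups and were chosen after their values were seen. CTSG, also chosen so, was bright and did not pass (0.00). The medians of the monocytic and the granule list fall on CD14 and MPO, both under 5.49 in both groups. Both target lists were drawn up with earlier results of these arrays known, so their direction is not independent evidence.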

How the data were processed

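Total RNA of MV4;11 cells was amplified and labelled from transcript 3′ ends for Affymetrix arrays, per the labels' protocols. The deposited log2 values, 1 per probe set and array, were made by the authors with RMA, and limma was used, per the submitters' processing notes; the sources used here do not give their versions and settings. Array medians were 4.47 to 4.49. RMA compresses dim values, so folds of dim genes may be understated. Nonspecific controls of high GC content read higher with MI-389, by up to 0.32, and their part in dim signals was not tested. Precision is limited by the number of arrays.

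Of 49386 probe sets, 93 were controls. Gene symbols came from the platform annotation, updated through the RefSeq table of GRCh38.p14: 45253 probe sets had 1 gene, 1327 several and 2713 none, and 45172 of the first were matched. A gene was represented by its one-gene probe set with the highest mean. MI-389 was compared with DMSO with lmFit and eBayes of limma 3.58.1 (R 4.3.3), two-sided and without covariates, adjusted over all genes or all probe sets. Intervals of single probe sets come from the probe set fit. A fold given as at least N sets the brighter mean against the background level. The gene test was checked on simulated data.

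The 10 genes, and 9 lists with 141 genes, 134 of them with a value, were chosen with earlier results of these data known. The other 7 list genes were not analysed here. Named are the 10 genes, up to 3 rising and 3 falling genes per list with the largest called changes, and CEBPG, SPIB, SPIC, IRF5, GFI1B, RUNX2, RUNX3, CBFB, KLF2 and KLF6. Genes named as checks (cell type and control markers), the IRF gene not called and genes said to be chosen after their values were seen fall outside this rule. The alternatives were a common median, quantile normalisation, spike-in centring, leaving out genes under the 40th percentile of mean level, the replicate block, trended and robust variance, an adjusted p under 0.01, the mean of all probe sets, probe sets with unspecific suffixes last, and each array left out. Promoter windows, of which SPI1 and CEBPD had none used here, are RefSeq's.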

Additional observations from a re-analysis of the deposited data

Results flagged for a closer look

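The signals of 2 control probe sets for ribosomal RNA, which enter none of the comparisons above, differed between the groups by more than 1 on the log2 scale without overlap. The 5′ probe set of 28S ribosomal RNA read 10.7 ± 0.27 with DMSO and 12.8 ± 0.23 with MI-389, a difference of 2.10. The 3′ probe set of 18S ribosomal RNA read 9.93 ± 0.29 and 11.4 ± 0.33, a difference of 1.44. The other control probe sets of these RNAs differed by 0.15 to 0.94 in the same direction. The part of these signals in the changes of the 10 genes was not tested.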

How the results depend on the processing

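KLF4, CEBPA, CEBPD and IRF8 kept their direction and their call under every alternative run. KLF4 changed by 2.91 (log2) with the mean of its probe sets. CEBPE lost its call under spike-in centring, CEBPB and SPI1 at an adjusted p under 0.01 (6 of the 10 called), and SPI1 and IRF4 were not tested when dim genes were left out (7 called). Of the values of the 10 genes under alternatives at the same threshold and with all arrays, 69 kept direction and call, 7 gained a call, 1 lost it and 1 changed sign. Spike-in centring raised the calls to 12453 genes and 33091 probe sets, and those of the other monocytic factors from 7 to 13. An adjusted p under 0.01 left 3 of the 7 KLF calls. The sign changed for RUNX1 with unspecific suffixes last (0.0255), and under spike-in centring for the dimmer IRF4 probe set (-0.19) and the dimmest RUNX1 probe set (-0.23). These 2 probe sets had changed by 0.06 and 0.03, less than the shift of 0.25 that this centring applies throughout, so their signs had to change. With unspecific suffixes last, RUNX1 was represented by its dimmest probe set. Why the spike-ins differed was not tested. Leaving out 1 array gave 5216 to 6160 genes, 11323 to 13594 probe sets, 7 to 8 of the 10 genes, 16 to 18 of the 25 probe sets and 4 to 7 KLF genes. It moved the dimmest RUNX1 probe set between -0.0196 and 0.0874, with -0.00796 and -0.00304 also below 0.

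Same-numbered replicates did not deviate together (correlations -0.18, 0.03 and -0.11). The labels do not say whether equal numbers were handled together, and these correlations cannot settle it. With the replicate number as a block, 5725 genes and the same 8 of the 10 genes were called.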

Other observations

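The probe set annotated to both SH3D19 and RUNX1 read 3.39 ± 0.06 with DMSO and 3.27 ± 0.06 with MI-389, under the background level in both groups. Its change of -0.12 (limma, adjusted p = 0.185) was not called and its groups overlapped.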
